A study of Mus musculus with 2 samples.

Results

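The mouse microRNAs from miR-6896 to miR-7094 form a block of names given mostly to predicted mirtrons, and the probes for their 5p arms were examined here. A probe was taken when its name was of the form mmu-miR-N-5p, with N in that range and an optional letter after the number, which gave 200 of the 1892 mature microRNA probes. The choice used names alone and no measured value. The study compared wound healing in skin and oral mucosa, and these arrays profiled both tissues before wounding. Female Balb/c mice of 8 to 10 weeks were used, and neither tissue was treated. RNA from 3 animals was pooled per tissue, and 2 µg was hybridized to 1 Cy5 array for skin and 1 for oral mucosa. The paper describes the profiled samples as epithelium in its results and as skin and oral mucosal samples in its methods, so whether tissue beneath was included is not known. With 1 array per tissue there was no replicate and no test between tissues, so each difference below is one between 2 arrays. Each error of a signal is the SD of the 2 repeat spots of a probe, which is technical. The SD of a difference combines the spot SDs of both arrays. For a probe detected on 1 array only it is the SD of that array alone, so it holds no error of the other array.

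A mirtron is a microRNA precursor that the splicing machinery cuts out as a short intron, which folds into a hairpin and is then processed by Dicer without the nuclear enzyme Drosha. In a conventional mirtron both ends of the hairpin are splice sites, so that the RNA begins with GU and ends with AG. In a tailed mirtron only one end is a splice site and the other carries extra bases. Mammalian mirtrons tend to have a G-rich 5p arm that pairs with a pyrimidine-rich 3p arm ending near the splice acceptor. MicroRNAs of such hairpins are mostly of low abundance.

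The members were compared with RefSeq sequences of the GRCm38.p6 assembly. An entry with the identical mature sequence was found for 175 of the 200 members, and a hairpin at 1 place for 169 of them. Of these hairpins, 156 (92.3%) ended with AG, against 9.59% of 834 other mouse hairpins. Only 20 of the 169 also began with GU, compared with 1.20% of the other hairpins. In 78.7% of the 169 the 5p arm began 5 bases into the hairpin, so the first bases of an entry often lay before the arm and need not be a splice site. The hairpins were short, with a median of 66 bases and a range from 52 to 137, whereas the median of the others was 82. All 174 members with 1 position lay within the span of a protein-coding gene, and for 153 that gene was listed on the same strand. For the remaining 21 the strand of the gene was not listed in the tables used, and whether a hairpin lies in an intron was not determined. The members were spread over 19 chromosomes, with at most 18 on one of them, chromosome 7. The AG ends and the lengths thus follow the form of mirtrons, mostly with bases before the 5p arm. Because the names were given mostly to predicted mirtrons, this form is no independent check of the name.

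The first sequences shown are those of the 8 members that were higher on the skin array by at least 2-fold under every normalization tried. Each is the mature RNA, written 5′ to 3′ with its seed, bases 2 to 8, in capitals. Positions are those of GRCm38.p6.
miR-7088-5p (chr9:108081498-108081522, + strand): gCAAGUGGuggugaggaggggaaac
miR-7075-5p (chr8:107096081-107096101, - strand): cGGGGAGGaggacaugguuuu
miR-6942-5p (chr13:21396613-21396633, - strand): uAGGAGGAggggaacauuugc
miR-7052-5p (chr7:44470352-44470372, + strand): uGUGGGAAgguggaggccuuu
miR-7082-5p (chr9:21075563-21075583, - strand): uACGGGCAggaggaggggagg
miR-7028-5p (chr5:114719515-114719537, + strand): uGGGCUGAggcuugggucaggag
miR-7045-5p (chr6:125097029-125097049, + strand): aGCGGGUGggggagggggacu
miR-6931-5p (chr11:102999896-102999916, - strand): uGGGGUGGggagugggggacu
The next are the 6 members that were higher on the oral mucosa array by at least 2-fold under the main normalization. Only miR-7053-5p and miR-6996-5p stayed so under every normalization tried.
miR-7053-5p (chr7:44538153-44538173, - strand): uGGGGAAAggcaggcuacugg
miR-6996-5p (chr2:26470094-26470114, - strand): uGCACAGGacagagcacaguc
miR-6989-5p (chr19:6346485-6346506, + strand): uUGGGGACagaggcacaggaug
miR-7043-5p (chr6:116646020-116646042, - strand): uGUGAAAGcagagaggcauuuuu
miR-7034-5p (chr5:135735864-135735884, - strand): uCCGGGAGggauggaugugcu
miR-7007-5p (chr3:20222332-20222354, - strand): uCAGAAGAggcaguggaggagau
Sequences of 4 bright members without a 2-fold difference are given for comparison.
miR-6937-5p (chr12:28679325-28679348, + strand): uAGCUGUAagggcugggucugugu
miR-7047-5p (chr7:24987640-24987662, - strand): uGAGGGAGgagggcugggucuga
miR-6944-5p (chr13:55477754-55477776, - strand): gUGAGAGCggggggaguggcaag
miR-6945-5p (chr13:55507667-55507688, - strand): uCCUGGGAggggcagccccugg
The hairpins of 3 members are shown with the first and last 2 bases of the entry in capitals. The entry of miR-6931-5p begins with GU, 5 bases before the 5p arm, and ends with AG. Those of miR-7045-5p and miR-7053-5p share only the AG end.
miR-6931-5p hairpin (chr11:102999848-102999921, - strand): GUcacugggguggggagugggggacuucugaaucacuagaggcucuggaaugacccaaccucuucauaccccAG
miR-7045-5p hairpin (chr6:125097024-125097086, + strand): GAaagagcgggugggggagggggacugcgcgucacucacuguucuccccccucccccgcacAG
miR-7053-5p hairpin (chr7:44538106-44538178, - strand): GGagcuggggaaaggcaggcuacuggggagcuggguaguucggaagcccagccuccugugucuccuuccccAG

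The labelled tissues were checked with microRNAs of known cell types. MiR-203-3p and miR-205-5p, both abundant in stratified epithelium, read 18734 and 22415 on the skin array and 18503 and 21673 on the oral mucosa array. On the VSN scale, explained with the differences below, they differed by -0.48 (SD 0.37) and -0.51 (SD 0.59), toward skin. Of the fibroblast and smooth muscle microRNAs, miR-145a-5p and miR-199a-3p, detected on both arrays, differed by 1.78 and 1.49 toward oral mucosa. MiR-143-3p, detected on oral mucosa only, differed by 2.02. The summed signal of this list was 253 in skin and 763 in oral mucosa, in scanner units that include background. The single endothelial probe, miR-126a-3p, read 43.4 and 155 and was detected on oral mucosa only, with a difference of 1.84 (SD 0.70). Of the red blood cell list, miR-451a read 67.3 and 3056, miR-144-3p was detected on neither array and miR-486a-5p had no probe of that name. The summed signal of the 3 skeletal muscle microRNAs was 247 in skin and 338 in oral mucosa, again in scanner units with background. On the VSN scale miR-206-3p, detected on both arrays, differed by -0.19 (SD 0.36). MiR-133a-3p, detected on oral mucosa only, differed by 0.71 (SD 0.24), and miR-1a-3p was detected on neither array. The part of cell type makeup in the results below was not tested, and in these bulk samples fewer cells of a type and less RNA per cell cannot be told apart.

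Few members gave a strong signal on either array. Detection required the average of both spots to exceed that of the 16 empty spots by over 3 SD, a limit of 59.9 scanner units for skin and 71.8 for oral mucosa. On the skin array 58 members (29.0%) were detected, against 23.6% of all probes. On the oral mucosa array 67 members (33.5%) were detected, against 27% of all probes. In total 75 members (37.5%) were detected on at least 1 array, against 29.7% of all probes, and 50 of these on both. A further 8 were detected on the skin array only, 17 on the oral mucosa array only and 125 on neither. The median signal of the members was 46.5 in skin and 57.6 in oral mucosa, close to the fitted array offsets of 37.9 and 46.3. Over all probes the medians were lower, at 42.2 and 52.2. Of the members, 20 exceeded 200 units on an array, and 5 exceeded 1000. All probes over these levels were not counted. The 90th percentile of signal was 159 in skin and 148 in oral mucosa for members, against 177 and 250 for all probes. The detection limits concern signal over background, and a member below them was not detectable here rather than absent.

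**Figure D1:**
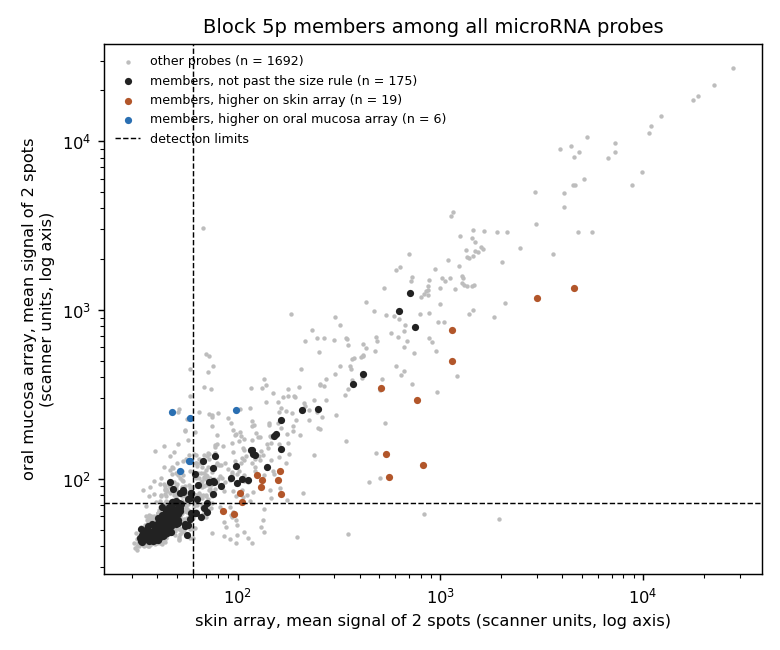
Mean signal of each microRNA probe on the skin array (x axis) and on the oral mucosa array (y axis), in scanner units on log axes, with the 200 block 5p members in black, brown or blue over the 1692 other probes in grey. Most members crowd below both dashed detection limits (59.9 and 71.8), and the brightest, at 4594 in skin and 1357 in oral mucosa, lies among the 19 brown points that are higher on the skin array.

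Members near the detection limits show how the call turns on a few units. MiR-6975-5p, at 61.4 ± 3.86 (SD of 2 spots), and miR-7018-5p, at 61.8 ± 13.7, lay just above the skin limit. MiR-6934-5p, at 58.8 ± 3.94, and miR-6990-5p, at 58.7 ± 8.44, lay just below it. On the oral mucosa array miR-6939-5p (72.6 ± 5.13) and miR-6929-5p (72.8 ± 5.40) lay just above the limit, and miR-7036-5p (71.5 ± 1.28) and miR-7019-5p (71.5 ± 1.00) just below. The spots of several of these members fall on both sides of a limit. The repeat spots of detected members otherwise lay close together, with a pooled SD on the log2 scale of 0.26 in skin and 0.14 in oral mucosa, and no member had a spot in the 2 columns at the edge of the array.

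Members that differed between the arrays were mostly higher in skin. The signals were put on a common scale by Variance Stabilizing Normalization (VSN), whose values run parallel to log2 at high signal. A member was taken to differ when oral mucosa minus skin was at least 1 in size. At high signal this is a 2-fold change after scaling. In dim members it is 2-fold on the VSN scale only and can go with a much smaller difference in scanner units. For example, miR-6973a-5p read 124 in skin and 105 in oral mucosa, and its VSN difference was -1.02. For a member detected on 1 array only, the other array was taken at the higher of the member's own value and the lowest detected value. By this rule 19 of the 75 detected members (25.3%) were higher on the skin array, against 14.8% of all detected probes. Only 6 members (8%) were higher on the oral mucosa array, against 13.7% of all detected probes. These counts depended on the scaling. Scalings other than VSN were no normalization, the processed values of the authors, quantiles, and scaling by the 75th percentile or median. With them, 8 to 11 members were higher in skin and 2 to 5 in oral mucosa. Of all 562 detected probes, 22 to 49 (3.91% to 8.72%) were then higher in skin and 36 to 80 in oral mucosa. Of the 19, 17 were detected on both arrays and 2 on skin only, whereas 5 of the 6 were detected on oral mucosa only. In 24 of these 25 members the spots from skin and from oral mucosa did not overlap on the VSN scale. The exception was miR-6965-5p, with skin spots of 200 and 63.6 and oral mucosa spots of 92.3 and 105. All 25 had been picked by a difference between these same spots, which by itself makes overlap unlikely, so this count adds no support.

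The brightest member in both tissues was miR-7082-5p, whose hairpin lies within Raver1, the gene of an RNA-binding protein that partners the splicing regulator PTB. Its spots read 4584 and 4604 on the skin array and 1517 and 1197 on the oral mucosa array. The VSN log2 difference was -2.25 (SD 0.25). MiR-7045-5p, within Chd4, the gene of the ATPase of the NuRD chromatin remodelling complex, ranked next in skin, with spots of 3153 and 2844. Its oral mucosa spots were 1195 and 1144, and the difference was -1.86 (SD 0.12). MiR-6931-5p, within Dcakd, had spots of 1299 and 996 in skin and 519 and 482 in oral mucosa, so that the difference was -1.75 (SD 0.29). In each of these 3 members both skin spots exceeded both oral mucosa spots by a wide margin, although the oral mucosa array was the brighter one overall.

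Larger relative differences were found in members of intermediate signal. The spots of miR-7088-5p, within Mst1, which encodes macrophage stimulating protein, read 879 and 762 in skin and 138 and 102 in oral mucosa. Those of miR-7075-5p, within Terf2, the gene of a telomere-binding protein, read 620 and 494 in skin and 113 and 90.6 in oral mucosa. Those of miR-6942-5p, whose hairpin lies within the span of Zkscan3, the gene of a zinc finger protein, read 557 and 521 in skin and 133.1 and 148.1 in oral mucosa. In all 3 the groups of spots were far apart, and the oral mucosa signal lay much nearer its detection limit than the skin signal did. The differences were -3.87 (SD 0.52), -3.68 (SD 0.49) and -2.87 (SD 0.18) respectively. MiR-7028-5p, within Tchp, followed with spots of 813 and 719 in skin and 321 and 266 in oral mucosa, so that the difference was -2.02 (SD 0.27). MiR-7052-5p, within Josd2, a deubiquitinase gene, was much dimmer, at 166 and 161 in skin and 80.9 and 81.4 in oral mucosa. Its difference of -2.30 (SD 0.05) rested on an oral mucosa signal just above the limit.

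The other members higher in skin gave lower signals or smaller differences. MiR-7044-5p, within Rasgef1a, read 1143 ± 125.6 in skin and 757 ± 19.8 in oral mucosa, and miR-7011-5p, within Sema4a, a semaphorin gene, read 507 ± 32.8 and 344 ± 11.5. Their differences of -1.09 (SD 0.17) and -1.12 (SD 0.12) lay close to the size rule. MiR-6939-5p, within Akt1, the gene of a kinase of the insulin and PI3K pathway, read 105 ± 4.80 in skin and 72.6 ± 5.13 in oral mucosa, so that the difference was -1.79 (SD 0.30). MiR-7081-5p, within Dnmt1, the gene of the maintenance DNA methyltransferase, read 103 ± 29.8 and 82.6 ± 4.77, a difference of -1.29 (SD 0.72). Here the SD of the skin spots was large relative to the signal above background. The 2 members detected on the skin array only were miR-7080-5p, at 95.6 ± 19.9 in skin with a difference of -1.62 (SD 0.50), and miR-7022-5p, at 84.9 ± 26.0 with a difference of -1.32 (SD 0.84). The remaining 4 besides miR-6965-5p, namely miR-6980-5p, miR-7048-5p, miR-7033-5p and miR-6973a-5p, had differences between -1.69 and -1.02.

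**Figure D2:**
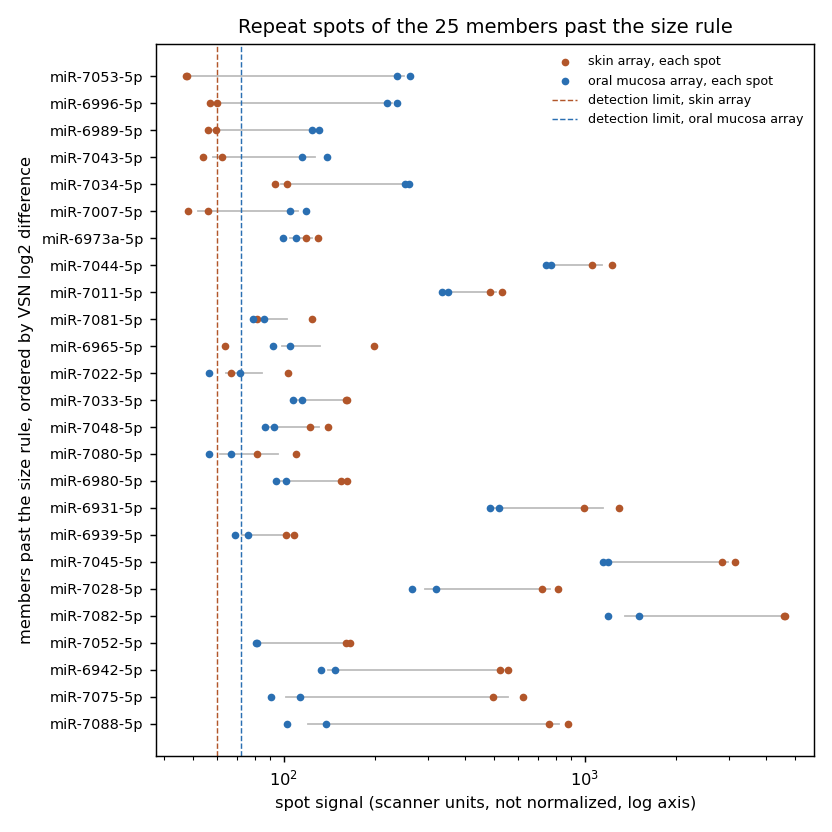
Signal of each repeat spot (x axis, scanner units without normalization, log axis) for the 25 members past the size rule, ordered by VSN log2 difference, with skin spots in brown, oral mucosa spots in blue and dashed detection limits. The members at the bottom, from miR-7088-5p at 879 and 762 in skin against 138 and 102 in oral mucosa, have widely separated spots, while several in the middle lie within a narrow band above the limits.

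The 6 members higher on the oral mucosa array were all of modest signal. MiR-7053-5p, within Pold1, the gene of the catalytic subunit of DNA polymerase delta, read 47.4 and 47.8 in skin, below the limit, and 237 and 263 in oral mucosa. MiR-6996-5p, within Notch1, the gene of a receptor that controls differentiation in stratified epithelium, read 59.9 and 56.9 in skin and 220 and 238 in oral mucosa. Against the lowest detected skin signal the differences were 2.74 (SD 0.13) and 2.59 (SD 0.10), with SDs of the oral mucosa spots alone. These were the only members whose oral mucosa signal exceeded 200 units while skin was not detected. MiR-7034-5p, within Tmem120a, was the only one detected on both arrays, at 97.7 ± 6.14 in skin and 256 ± 5.52 in oral mucosa, so that the difference was 1.35 (SD 0.15). MiR-6989-5p, within Map4k2, a kinase gene, read 57.8 ± 2.47 and 127 ± 4.77, and miR-7043-5p, within Rassf4, read 58.0 ± 5.91 and 127 ± 16.9. Their differences were 1.41 (SD 0.09) and 1.40 (SD 0.31). MiR-7007-5p, within Cpa3, the gene of mast cell carboxypeptidase, read 52.0 ± 5.80 and 112 ± 9.14, a difference of 1.10 (SD 0.20). In all 6 the spots of the arrays did not overlap, which the choice by difference makes likely in itself. Expression of the surrounding genes was not measured here.

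The other 50 detected members lay between -0.99 and 0.98. Among the 20 members above 200 units, 9 were higher in skin, 3 in oral mucosa and 8 did not pass the rule. Of all detected probes, at any signal, 14.8% were higher in skin and 13.7% in oral mucosa. Other probes above 200 units were not counted apart, so this split cannot be read as a trait of bright members. MiR-6937-5p read 706 ± 35.1 in skin and 1252 ± 26.3 in oral mucosa, but on the VSN scale the difference was 0.40 (SD 0.08). MiR-7047-5p read 625 ± 31.3 and 987 ± 0.61, a difference of 0.22 (SD 0.08). In both the raw signal was higher in oral mucosa, and the VSN difference was smaller because the scale of that array was fitted at 1.37 times that of skin. MiR-6981-5p (752 ± 78.0 and 794 ± 68.7), miR-6944-5p (415 ± 59.2 and 420 ± 9.46) and miR-6945-5p (369 ± 68.8 and 364 ± 36.8) read nearly alike in scanner units, with differences of -0.39, -0.47 and -0.51. MiR-6922-5p, within Srebf1, the gene of a regulator of lipid synthesis, read 208 ± 6.44 and 256 ± 39.7, a difference of -0.16 (SD 0.28), and its spots overlapped on this scale. Just short of the rule were miR-6946-5p and miR-6968-5p toward skin, both at -0.99, and miR-7012-5p (0.98) and miR-7018-5p (0.87) toward oral mucosa.

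Relative to all detected probes, the detected members as a group lay toward skin under every setting tried, although without normalization their own median turned to 0.23, beside 0.40 for all detected probes. By VSN their median difference was -0.32, with quartiles of -1.01 and 0.22, and 52 were below 0 and 23 above. Over all 562 detected probes the median was -0.004. Among the members detected on both arrays the median was -0.47. The 3p probes of the same block went the other way, with 45 of 201 (22.4%) detected, a median difference of 0.41, 12 toward oral mucosa by the size rule and 0 toward skin. The 5p probes outside the block had a median of -0.03, and of 173 detected 24 passed the rule toward oral mucosa and 26 toward skin. No test between these lists was possible with 1 array per tissue, and the counts describe these 2 arrays.

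**Figure D3:**
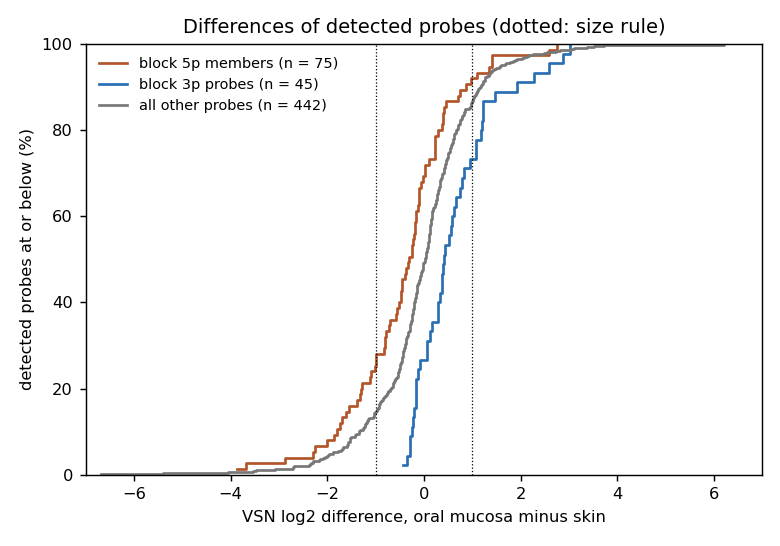
Cumulative share of detected probes (y axis, %) at or below each VSN log2 difference (x axis, oral mucosa minus skin) for the 75 detected members, the 45 detected 3p probes of the block and all other detected probes, with dotted lines at the size rule. On this scale the curve of the members (median -0.32, but 0.23 without normalization) lies mostly to the left of the others and that of the 3p probes (median 0.41) to the right.

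Each member was set beside the 3p probe of its own precursor. Both arms were detected on at least 1 array in 20 of the 200 pairs, the 5p arm alone in 55, the 3p arm alone in 25 and neither in 100. Of the 25 members past the size rule, 19 had a 3p arm that was detected on neither array. This is a similar share to the 156 of all 201 3p probes of the block. In 0 pairs did both arms pass the rule toward the same tissue, and in 2 pairs they went opposite ways. For miR-7082 the 5p arm differed by -2.25, while the 3p arm read 73.6 ± 4.81 in skin and 341 ± 51.7 in oral mucosa, so that the difference was 2.58 (SD 0.32). For miR-7022 the 5p arm differed by -1.32, and the 3p arm read 75.4 ± 17.8 and 463 ± 135, a difference of 3.01 (SD 0.85). Of the pairs with both arms detected, only the 3p arm passed the rule in 5, and only the 5p arm in 4. MiR-6958-3p and miR-7072-3p differed by 1.92 and 1.07, and their 5p arms by 0.70 and 0.45 in the same direction. MiR-6970-3p differed by 1.47 (SD 2.07) and its 5p arm by -0.22. In the remaining 2 of the 5 the 5p arm lay near the limit. MiR-6934-3p read 68.1 ± 4.35 in skin and 352 ± 8.88 in oral mucosa (2.87, SD 0.21), whereas miR-6934-5p differed by 0.22, and miR-6929-3p read 137 ± 19.9 and 360 ± 11.3 (1.20, SD 0.30), whereas miR-6929-5p differed by -0.19. The signs of the differences agreed in 9 of the 20 pairs.

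The members shared a base composition that the choice by name had not used. The median G share of their sequences was 44.0% and the median C share 13.6%, against 23.8% for both bases in all other probes. G was the most frequent base in 167 of the 200 members, compared with 23.8% of other probes. A run of GGG on the RNA strand was present in 151 members (75.5%) and in 24.6% of other probes, and GGGG, which contains GGG, in 76 (38%) and 7.57%. The 3p probes of the block had the reverse composition, with medians of 14.3% G and 40.9% C.

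Detection rose with the G share among the members. Of those under 30% G, 1 of 11 was detected on at least 1 array, miR-6996-5p. Of those from 30% to under 40%, 9 of 51 (17.6%) were detected, from 40% to under 50%, 26 of 73 (35.6%), and from 50% up, 39 of 65 (60%). The other probes followed a similar order, from 25% to 29.1%, 37.9% and 65.8%. Within the same class of G share the members were thus detected no more often than other probes, and the share was lower in all 4 classes. Across the 200 members Spearman's rho of G share with signal was 0.44 in skin and 0.47 in oral mucosa, and across the 1692 other probes 0.11 and 0.12. For U share it was -0.35 and -0.38 across the members, and -0.16 and -0.23 across the other probes. These are descriptions across probes that share the arrays, and a brighter probe does not mean a more abundant microRNA, since probes differ in how strongly they bind.

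**Figure D4:**
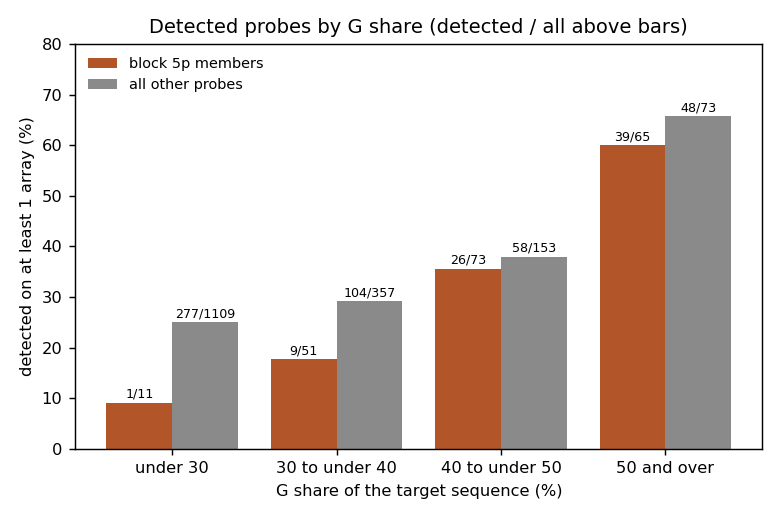
Share of probes detected on at least 1 array (y axis, %) in 4 classes of the G share of the target sequence (x axis, %), for the block 5p members in brown and all other probes in grey, with the detected and total numbers above the bars. The share rises with G in both, to 60% of the members and 65.8% of the other probes in the class of at least 50% G.

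The differences between the tissues also followed the G share. Of the 39 detected members of at least 50% G, 13 (33.3%) were higher in skin and 0 in oral mucosa, with a median difference of -0.45. Of the 48 detected other probes in that class, 13 (27.1%) were higher in skin and 2 (4.17%) in oral mucosa, with a median of -0.34. Of the 277 detected other probes under 30% G, 27 (9.75%) were higher in skin and 49 (17.7%) in oral mucosa, with a median of 0.16. The members higher in skin had a median G share of 52.2%, from 34.8% to 66.7%, and those higher in oral mucosa a median of 44.5%, from 28.6% to 47.6%. GGGG was present in 11 of the 19 members higher in skin and in 2 of the 6 higher in oral mucosa, beside 35 of all 75 detected members. Across the 75 detected members the rho of G share with the difference was -0.27, and across 487 other detected probes -0.18. G share moved with the direction of the differences both inside and outside the block, and its part in the differences of the members was not tested.

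Members with the same seed, which sets much of a microRNA's choice of targets, were compared with each other. The 200 members carried 177 seeds, of which 18 were shared by 41 members, and 50 members shared a seed with a probe outside the block. In 4 of the shared seeds at least 2 members were detected. MiR-6942-5p and miR-6916-5p share the seed AGGAGGA, and the latter read 70.6 ± 11.1 in skin and 63.5 ± 6.90 in oral mucosa, so that the difference was -0.80 (SD 0.50) beside -2.87. MiR-7047-5p and miR-6965-5p share GAGGGAG, with differences of 0.22 and -1.30. MiR-6922-5p and miR-6993-5p, which share GUGGGAG, differed by -0.16 and 0.41. MiR-7005-5p and miR-6975-5p, which share CUGGGGA, differed by -0.06 and -0.33. In 2 of the 4 pairs the differences had the same sign, and in the other two they had opposite signs.

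The members were also read by the first and last bases of their hairpin entry. Of the 20 members whose hairpin begins with GU and ends with AG, 7 (35%) were detected, with a median difference of -0.37, and 2 were higher in skin and 0 in oral mucosa. Of the 136 with AG at the end and another beginning, 51 (37.5%) were detected, with a median of -0.33, and 16 were higher in skin and 6 in oral mucosa, beside 14.8% and 13.7% of all detected probes. Of the 13 with another ending 3 were detected, which is too few to compare. Of the 31 without a hairpin entry at 1 place, 14 (45.2%) were detected, with a median of -0.20, and 1 was higher in skin and 0 in oral mucosa. As a set of earlier mirtrons, the 6 probes of miR-702, miR-877 and miR-1224 were read as well. MiR-1224-5p, with 61.9% G, was the brightest of them at 1382 ± 50.5 in skin and 945 ± 10.3 in oral mucosa, so that the difference was -1.04 (SD 0.06), and 3 of the other 5 were each detected on 1 array only and 2 on neither.

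How far each difference depends on the scale between the arrays was examined with 8 other normalizations or sources of values, 1 of them (VSN with offsets set to the empty spots) chosen after seeing the data. Of the 19 members higher in skin, 8 stayed at least 2-fold higher under all of them, namely miR-7088-5p, miR-7075-5p, miR-6942-5p, miR-7052-5p, miR-7082-5p, miR-7028-5p, miR-7045-5p and miR-6931-5p. Of the 6 higher in oral mucosa this held for miR-7053-5p and miR-6996-5p. The direction was kept in 24 of the 25, the exception being miR-6965-5p. VSN from a single start and VSN after normexp background correction gave the same counts as the main fit, 6 and 19. Their differences were also nearly the same, so these settings add little to the check.

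**Figure D5:**
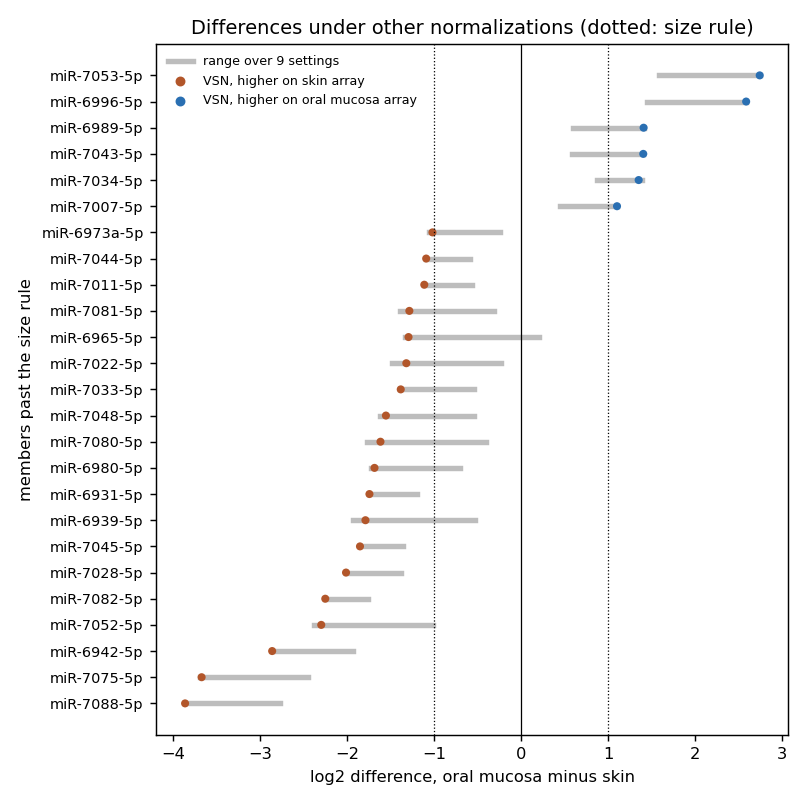
Log2 difference of oral mucosa minus skin (x axis) for the 25 members past the size rule, with points for VSN and grey bars for the range over 9 settings (VSN and the 8 others), and dotted lines at the size rule. MiR-7088-5p ranges from -3.87 to -2.77 and miR-7053-5p from 1.59 to 2.74, beyond the rule throughout, whereas the bars of most members of low signal cross it and that of miR-6965-5p crosses 0.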

How the data were processed

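The authors deposited for each array the median Cy5 intensity of every spot, in scanner units with no background subtraction or normalization, and a table of processed intensities in whole numbers whose scaling between arrays is not given in the sources used here. The 184 control spots were left out, except that the 16 empty ones set the detection limits. The 2 repeat spots of a probe were averaged, and VSN, the normalization of the study's methods, was written in Python as an arsinh transformation fitted by maximum likelihood from 15 starts, trimmed to the best 90% of the probes in all but the dimmest of 5 slices of mean signal. Tested on simulated data with known answers, the procedure called changed probes the right way and no unchanged ones. The changed probes were all bright and changed by 4-fold, so the test does not cover 2-fold differences or changes in dim members. The procedure also set the array offsets too high. Under the noise model tried first it shifted the median difference beyond the limit set for it. The test was therefore kept under 2 noise models, and an alternative with offsets taken from the empty spots was added afterwards. Named members were the 10 brightest on each array, those with the largest differences past the size rule (up to 10 detected on both arrays and 5 on 1 array in each direction), the 2 nearest to each side of each limit and threshold, detected members that share a seed, and any with spots over 4-fold apart (0 members). Other members past the rule, their 3p arms and the marker microRNAs are named besides. The members and lists were chosen with earlier results of these data known. Other normalizations, filters and thresholds, normexp background correction and the processed intensities on the scale log2(value + 50) were tried. Software was Python 3.11.15, numpy 2.4.6, scipy 1.17.1, pandas 2.3.3, R 4.3.3 and limma 3.58.1. The number of arrays limits the precision.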

Additional observations from a re-analysis of the deposited data

How the results depend on the processing

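No paired analysis was possible because there was 1 array for skin and 1 for oral mucosa. VSN gave 6 members toward oral mucosa and 19 toward skin. Both counts fell with quantile normalization (2 and 9), scaling to the median (3 and 9), scaling to the 75th percentile (2 and 11), the authors' processed values (2 and 9) and a 4-fold threshold (2 and 6). Without normalization they were 5 and 8, so that 38.5% of the members' calls were toward oral mucosa in place of 24%, while over all probes this share went from 48.1% to 78.4%. Without a detection filter they were 24 and 41. They were 1 and 17 with detection on both arrays, 3 and 18 with a limit of 5 SD, and 10 and 28 with a 1.5-fold threshold. VSN with offsets set to the empty spots (36.4 and 51.9), an alternative chosen after seeing the data, gave 5 and 22. The median difference of the detected members turned from -0.32 to 0.23 without normalization, when that of all detected probes rose to 0.40. Relative to all detected probes the median of the members was between -0.44 and -0.13 under every setting. The difference of miR-6965-5p was 0.21 with the processed values. The cause of these changes was not tested. Depth is limited by signal over background, as most members read near the empty spots, and differences of dim members rest on offsets that the procedure did not recover well in its own test. Leaving out a replicate was not possible with 1 array per tissue.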
